A study of Homo sapiens with 15 samples.

Results

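SR and hnRNP splicing factor genes were followed in A549, a human lung adenocarcinoma cell line, through hypoxia and treatment with 3 compounds. The genes were taken by name. Their symbol had to start with SRSF, HNRNP, SF3A, SF3B or U2AF, under the current name or a former SFRS name, or be TRA2A, TRA2B or SRRM1, and pseudogenes were left out. This gave 46 of the 18377 genes with a probe set of their own: 12 SR proteins, 3 SR-like proteins, 19 hnRNPs, 9 SF3A and SF3B subunits and 3 U2AF genes. HNRNPCL1 was too dim to be tested, which left 45 of the 16005 genes tested. Another 5 genes of the rule (HNRNPA3, HNRNPC, HNRNPCL3, HNRNPH2 and HNRNPUL2) had only probe sets that carry several symbols, and have no value here.

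RNA was measured on Affymetrix whole-transcript arrays, 1 per culture, in 5 groups of 3 arrays. The normoxic vehicle cultures received 0.1% DMSO. The hypoxic vehicle cultures received the same and were closed in a gas-pack pouch after 6 h, for a further 42 h. The other hypoxic groups had 10 µM of BB2-125, BB2-162 or BB2-282 from the start of those 6 h, also in 0.1% DMSO. The design text calls these compounds, known here by code names alone, inhibitors of transcription. No array holds a compound in normoxia, so a compound's effect on the response to hypoxia cannot be told apart from its effect on A549 cells in general. All groups are 1 established line. The labels call the 3 arrays of a group biological replicates. The p-values rest on the spread of arrays within the 5 groups, pooled in 1 fit that also borrows from the other genes tested. They take in no variation beyond these cultures.

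SR proteins carry RNA-recognition motifs and a tail rich in arginine and serine. They bind enhancer sequences in exons and help the spliceosome to recognise weak splice sites, and kinases of the CLK and SRPK families phosphorylate the tail. Many hnRNPs bind silencer sequences and act against SR proteins at the same exons. U2AF reads the end of the intron, and the SF3A and SF3B complexes hold the U2 snRNP on the branch point. Most SR and many hnRNP genes have an alternative exon that sends their own transcript to nonsense-mediated decay. A probe set value sums over such transcripts, so it gives RNA level and not the level of protein.

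The low oxygen showed on the arrays, while the markers of cell type did not settle the identity of the cells. KRT8, KRT18, KRT19, EPCAM and CDH1, 5 of 5 epithelial genes, were above the array's own 25th percentile on all 15 arrays, while PTPRC of leukocytes and DCN of fibroblasts were above it on 0. That percentile lies low, at 4.57 to 4.9 on the log2 scale, and 3 of 4 leukocyte and 3 of 4 fibroblast genes also passed it on all arrays. So did 2 of 4 endothelial genes, so passing it does not tell cell types apart. In hypoxia 5 of 5 hypoxia-responsive genes chosen as a check rose, NDRG1 by 4.15 and VEGFA by 3.66 on the log2 scale. EGLN3, another of the 5, fell by 2.15 with BB2-125, fell by 2.39 with BB2-162 and fell by 1.11 with BB2-282. It was the only 1 of the 5 called lower with BB2-162 or BB2-282. With BB2-125, 4 of the 5 were called lower, and with BB2-162 ADM rose by 0.60. One array, BB2-162 replicate 1, lay farther from its group mean than any other, by 0.221 (root mean square over all genes) where the rest lay 0.094 to 0.163 away. Counts over all members that rest on it are given with and without it. Counts by family and by gene list are given with it only.

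A gene was called where limma's p, adjusted by Benjamini-Hochberg over all 16005 genes of the comparison, was under 0.05. In hypoxia 23 of the 45 splicing factor genes fell and 8 rose. Of all genes tested 29.4% were called lower and 28.2% higher, and the corresponding shares of the splicing factors were 51.1% and 17.8%. With BB2-125 in hypoxia 14 rose against the hypoxic vehicle and 0 fell, beside 13.3% of all genes higher and 15% lower. At an unadjusted p under 0.05 limma gave 1 lower, U2AF1. With BB2-162, 20 rose and 2 fell, beside 15.7% and 20.4% of all genes. With BB2-282, 2 rose and 5 fell, which is 4.4% and 11.1% of the members and close to the 5.65% and 7.94% of all genes. The median change of the members was -0.23 in hypoxia, 0.12 with BB2-125, 0.26 with BB2-162 and -0.07 with BB2-282. Over all genes it was 0.09, 0.02, 0.06 and 0.02 in the same order. The 4 comparisons share the hypoxic vehicle arrays, so their values are given side by side and not compared. The pairs of compounds, described further on, share no array with the hypoxia comparison.

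Without BB2-162 replicate 1 the count with that compound was 17 higher and 2 lower. With each array centred on its median it was 14 higher and 2 lower, and the share of higher genes among all called genes moved from 43.4% to 28.2%. After quantile normalization it was 24 higher and 1 lower. The BB2-125 count fell to 9 higher without BB2-125 replicate 1, and also to 9 without replicate 2. In bulk RNA, fewer cells of one state and less RNA per cell cannot be told apart, and each array is scaled to the others, so every change is relative to the rest of the transcriptome.

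**Figure D1:**
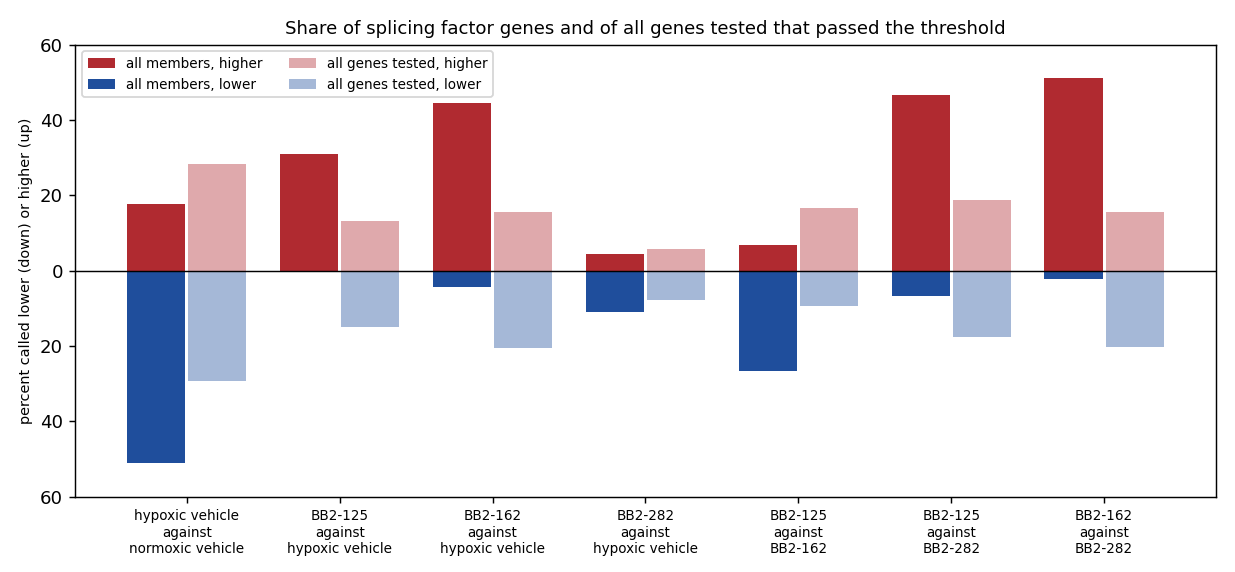
Share of the 45 splicing factor genes (dark bars) and of the 16005 genes tested (pale bars) that were called higher (red, upward) or lower (blue, downward), in percent, for each of the 7 comparisons. In hypoxia 51.1% of the splicing factors were lower, against 29.4% of all genes, and with BB2-162 44.4% were higher, against 15.7%.

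Most SR genes that changed in hypoxia fell. Of 12 SR genes 6 fell and 2 rose, and 5 fell at least 2-fold. SRSF1, the founding member of the family and an activator of many exons, read 10.79, 10.91 and 10.77 on the log2 intensity scale on the normoxic arrays, replicates 1 to 3, and 9.24, 9.32 and 9.11 on the hypoxic vehicle arrays. The groups lay far apart. The fall was 1.60 ± 0.10 (limma's change and its standard error, n = 3 per group), or 3.02-fold, with an adjusted p of 2.27e-10. SRSF2, a protein that marks nuclear speckles, went from 11.07, 11.15 and 11.09 to 9.68, 9.70 and 9.78, a fall of 1.38 ± 0.10 (adjusted p 5.02e-10). SRSF7, which also serves as an adaptor in RNA export, went from 10.10, 9.95 and 9.79 to 8.54, 8.65 and 8.48. All hypoxic values of both genes lay below all normoxic ones, and SRSF7 was 2.62-fold lower (adjusted p 1.31e-09). SRSF10, known as a repressor of splicing when it is dephosphorylated, fell by 1.40 ± 0.11 (adjusted p 2.12e-09), SRSF6 by 1.33 ± 0.12 (adjusted p 1.23e-08) and SRSF8 by 0.83 ± 0.10 (adjusted p 4.98e-07).

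Other SR genes did not follow. SRSF4 rose, from 8.08, 8.35 and 8.23 to 8.84, 8.93 and 8.90, by 0.67 ± 0.10 (adjusted p 1.29e-05). SRSF12 rose from 5.59, 5.47 and 5.81 to 6.08, 6.25 and 6.16, by 0.54 ± 0.10 (adjusted p 0.000114). The groups of either gene did not overlap. SRSF3, the partner of SRSF7 in RNA export, read 10.57, 10.37 and 10.39 in normoxia and 10.39, 10.38 and 10.21 in hypoxia, with overlapping groups and a change of -0.12 (95% interval -0.38 to 0.14, adjusted p 0.405). SRSF5, SRSF9 and SRSF11 changed by -0.02, 0.02 and 0.11 and passed no threshold.

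Of the SR-like genes, TRA2B, an activator of splicing that binds purine-rich exon sequences, gave the larger fall. It read 10.39, 10.37 and 10.33 in normoxia and 8.71, 8.80 and 8.55 in hypoxia. The normoxic arrays lay close together and the hypoxic arrays were all lower, by 1.68 ± 0.10 or 3.2-fold (adjusted p 3.55e-11). Its paralogue TRA2A went from 9.90, 10.16 and 10.04 to 8.74, 8.67 and 8.40, a fall of 1.43 ± 0.13 (adjusted p 1.57e-08) on the probe set used here. A second probe set of TRA2A went the other way, as given below. SRRM1, a coactivator that bridges SR proteins and the spliceosome, changed by 0.12 (95% interval -0.19 to 0.43) and was not called.

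Among the hnRNPs 12 of 18 fell in hypoxia and 2 rose, or 66.7% and 11.1%, beside 29.4% and 28.2% of all genes. HNRNPAB gave the largest fall of all members, from 11.35, 11.45 and 11.58 to 9.53, 9.44 and 9.53, which is 3.89-fold (1.96 ± 0.11, adjusted p 1.52e-11). HNRNPM, a regulator of alternative exons with several RNA-recognition motifs, went from 8.74, 9.04 and 9.15 to 7.12, 6.98 and 7.26, 3.62-fold lower (adjusted p 7.31e-11). HNRNPA2B1, which takes part in splicing and in RNA transport, went from 10.15, 10.46 and 10.68 to 8.60, 8.64 and 8.73, 3.42-fold lower (adjusted p 6.38e-10). Normoxic and hypoxic arrays were separate for each of these, with gaps of more than 1 log2 unit. HNRNPU, a scaffold protein of the nucleus, fell by 1.02 ± 0.15 (adjusted p 1.19e-05), and HNRNPK, a poly(C) binder, by 0.52 ± 0.10 (adjusted p 0.00014). The other falls ran from -0.97 for HNRNPD, a binder of AU-rich elements, to -0.36 for HNRNPH1, a binder of G runs. That of HNRNPUL1, -0.41, was lost without normoxic vehicle replicate 2 (adjusted p 0.0598).

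HNRNPA1, an exon silencer known for opposing SRSF1, gave the largest rise of any member. It read 4.73, 5.82 and 5.64 in normoxia, with replicate 1 well below the others, and 6.80, 6.38 and 6.80 in hypoxia, all higher. The rise was 1.26 ± 0.22, or 2.4-fold (adjusted p 6.08e-05). This probe set is dim, with normoxic replicate 1 near the percentile used as the lower limit, and is matched to 1 cDNA. Other probe sets of HNRNPA1 carry several symbols and were not used, and HNRNPA1 has many near-identical copies in the genome, so the direction for the gene itself is uncertain. HNRNPDL, related to HNRNPD, rose by 0.34 ± 0.10 (adjusted p 0.00675). HNRNPF, HNRNPLL, HNRNPA1L2 and HNRNPCL2 changed by 0.07, -0.08, -0.10 and 0.26 and were not called. HNRNPA1L2 and HNRNPCL2 are close copies of other hnRNP genes and may share probes with them.

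The genes of the branch point complexes moved in both directions, as genes in general did. Of 9 SF3A and SF3B genes 4 rose and 3 fell, or 44.4% and 33.3%, beside 28.2% and 29.4% of all genes. SF3A1 went from 8.48, 8.67 and 8.78 to 9.81, 9.81 and 9.89, a rise of 1.19 ± 0.11 or 2.29-fold (adjusted p 2.49e-08). SF3A2 went from 8.70, 8.65 and 8.84 to 9.75, 9.71 and 9.95, a rise of 1.07 ± 0.10 or 2.1-fold (adjusted p 2.63e-08). The third subunit of the same complex, SF3A3, was lower by 0.30 ± 0.11 (adjusted p 0.0323), so the 3 subunits of SF3A did not move together. SF3B6, which contacts the branch point adenosine, rose by 0.36 ± 0.11 and SF3B5 by 0.40 ± 0.13 (adjusted p 0.00778 and 0.016). SF3B3 and SF3B4 were lower by 0.34 ± 0.13 and 0.23 ± 0.09 (adjusted p 0.0256 and 0.0478). SF3B1, the large subunit that is mutated in some leukaemias, read 10.05, 10.25 and 10.20 against 10.37, 10.41 and 10.34, a change of 0.20 (95% interval -0.05 to 0.45) that was not called. The calls of SF3A3, SF3B3, SF3B4 and SF3B5 each ended when certain single arrays were left out, with adjusted p between 0.0514 and 0.226; each of the 6 arrays ended at least 1 of them.

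None of the 3 U2AF genes passed in hypoxia, and none had an unadjusted p under 0.05. U2AF2, which binds the pyrimidine tract, read 9.86, 10.04 and 9.95 in normoxia and 9.79, 9.91 and 9.99 in hypoxia (95% interval of the change -0.28 to 0.17). U2AF1, which reads the AG at the intron's end, changed by -0.13 (95% interval -0.34 to 0.09), and its paralogue U2AF1L4 by 0.12 (95% interval -0.11 to 0.35).

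**Figure D2:**
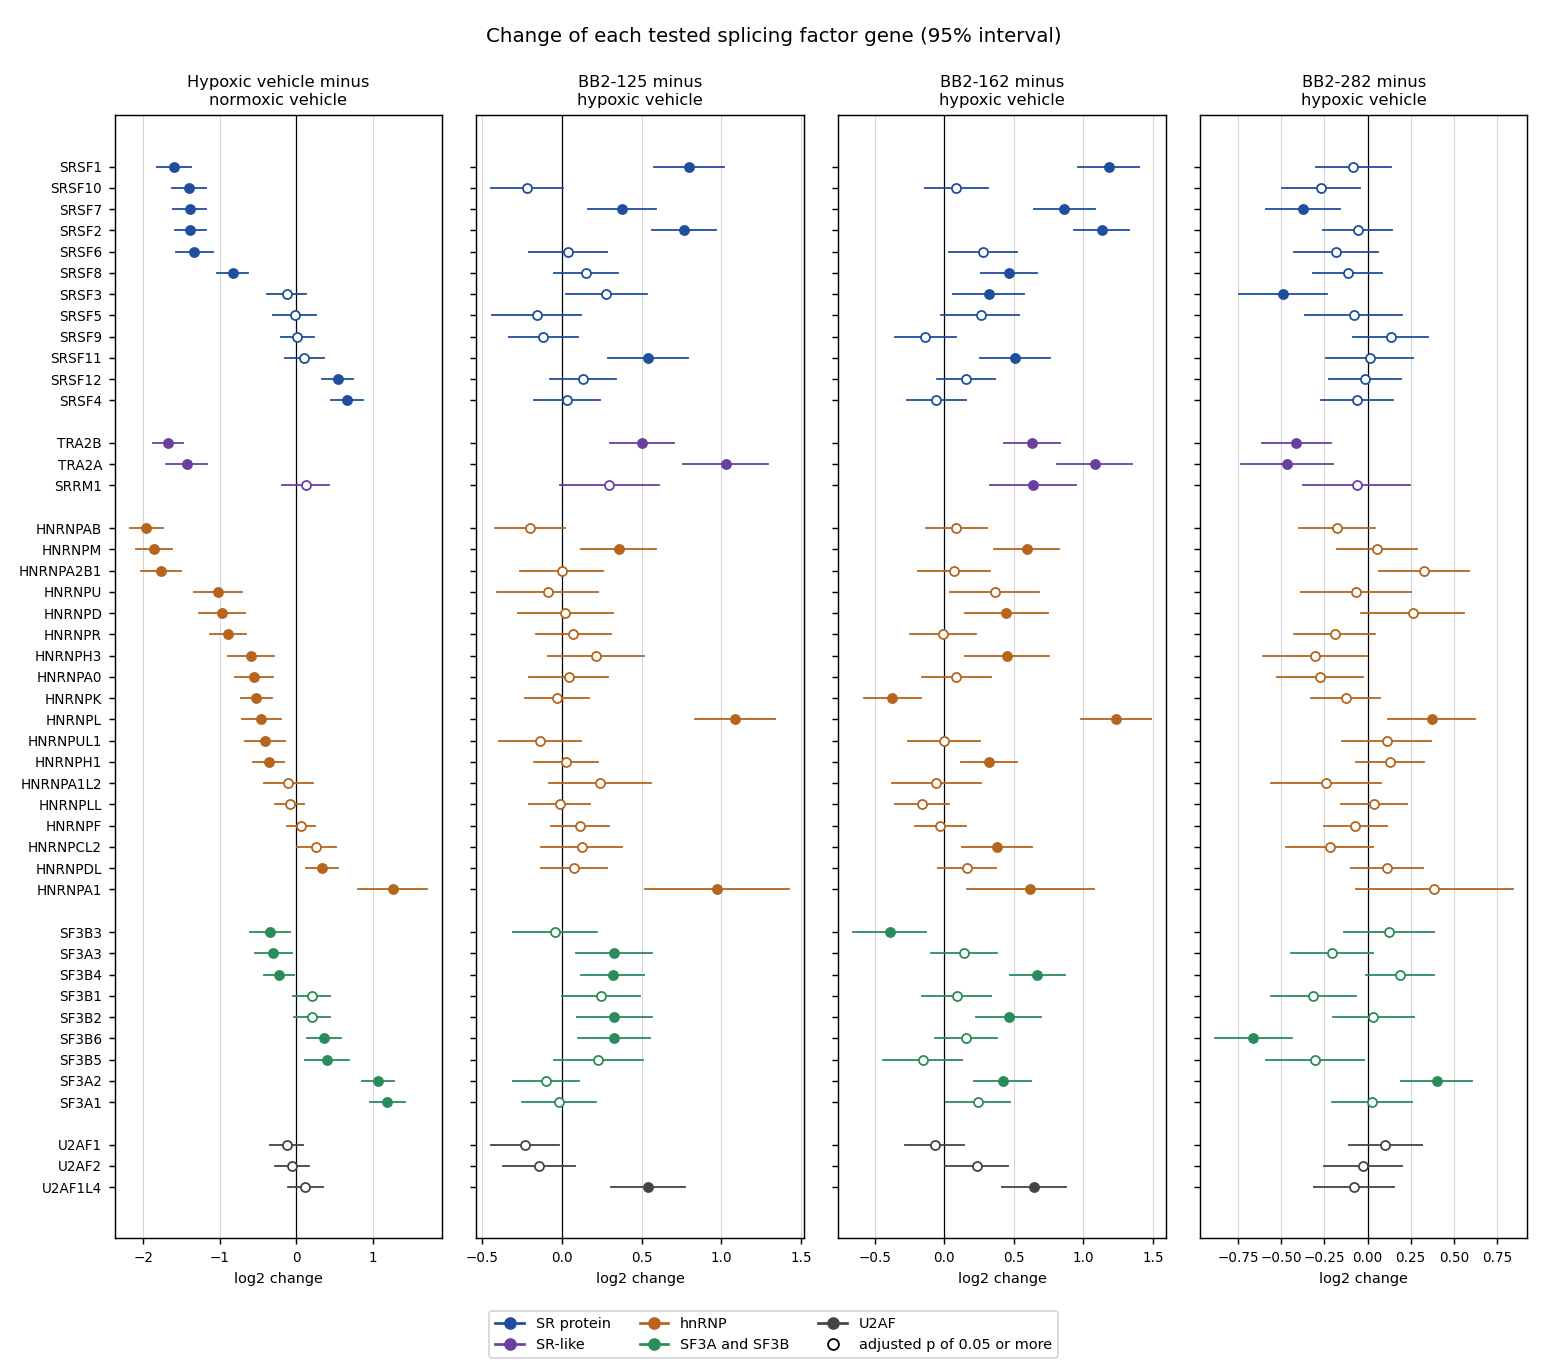
Log2 change of each of the 45 tested members, ordered within family by the hypoxia change, with the 95% interval from limma; filled points have an adjusted p under 0.05 and each panel has its own axis. SRSF1, TRA2B and HNRNPL lie below 0 in hypoxia and above 0 with BB2-125 and BB2-162. HNRNPAB and HNRNPA2B1 lie below 0 in hypoxia and near 0 with both compounds. All panels share the hypoxic vehicle arrays, so the values stand side by side and are not compared.

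The promoters of 6 members that fell or rose in hypoxia, with and without the motifs in either direction, are shown, since low oxygen acts on many genes through factors that bind ACGTG or GCGTG. They are the 250 bases before the start of the gene, 5′ to 3′ on the gene's strand, from RefSeq on GRCh38.p14, with each ACGTG and GCGTG in capitals on either strand (CACGT and CACGC when read from the other). SRSF1, TRA2B, HNRNPM and HNRNPAB fell, and SF3A1 and SRSF4 rose; they were chosen after their matches were seen. The windows are chr17:58007247-58007496 on the minus strand for SRSF1, chr3:185938015-185938264 on the minus strand for TRA2B, chr19:8444725-8444974 on the plus strand for HNRNPM, chr5:178204283-178204532 on the plus strand for HNRNPAB, chr22:30356895-30357144 on the minus strand for SF3A1 and chr1:29181901-29182150 on the minus strand for SRSF4.
SRSF1: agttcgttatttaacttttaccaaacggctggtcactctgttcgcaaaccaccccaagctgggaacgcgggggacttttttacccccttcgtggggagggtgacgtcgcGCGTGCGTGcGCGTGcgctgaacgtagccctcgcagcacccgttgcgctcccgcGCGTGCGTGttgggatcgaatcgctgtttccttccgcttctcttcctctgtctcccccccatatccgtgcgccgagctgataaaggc
TRA2B: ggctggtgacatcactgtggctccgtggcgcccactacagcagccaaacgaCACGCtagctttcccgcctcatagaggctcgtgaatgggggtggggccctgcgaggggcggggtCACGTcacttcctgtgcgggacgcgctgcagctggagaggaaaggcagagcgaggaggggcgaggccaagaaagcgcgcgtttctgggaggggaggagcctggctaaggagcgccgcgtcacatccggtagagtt
HNRNPM: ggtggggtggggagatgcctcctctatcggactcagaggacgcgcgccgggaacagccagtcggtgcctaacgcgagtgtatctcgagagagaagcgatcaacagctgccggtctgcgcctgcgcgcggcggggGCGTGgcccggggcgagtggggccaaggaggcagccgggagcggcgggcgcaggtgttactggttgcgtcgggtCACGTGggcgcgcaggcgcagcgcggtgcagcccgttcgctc
HNRNPAB: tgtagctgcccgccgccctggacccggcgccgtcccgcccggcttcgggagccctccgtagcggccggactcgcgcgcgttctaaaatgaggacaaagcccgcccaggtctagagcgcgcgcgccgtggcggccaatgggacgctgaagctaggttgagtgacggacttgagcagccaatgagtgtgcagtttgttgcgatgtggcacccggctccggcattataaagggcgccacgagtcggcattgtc
SF3A1: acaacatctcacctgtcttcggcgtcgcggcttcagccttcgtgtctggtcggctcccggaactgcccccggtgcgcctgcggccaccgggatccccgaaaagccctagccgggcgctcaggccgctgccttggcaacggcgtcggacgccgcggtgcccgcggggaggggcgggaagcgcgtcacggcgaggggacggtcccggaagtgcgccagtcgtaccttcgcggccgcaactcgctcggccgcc
SRSF4: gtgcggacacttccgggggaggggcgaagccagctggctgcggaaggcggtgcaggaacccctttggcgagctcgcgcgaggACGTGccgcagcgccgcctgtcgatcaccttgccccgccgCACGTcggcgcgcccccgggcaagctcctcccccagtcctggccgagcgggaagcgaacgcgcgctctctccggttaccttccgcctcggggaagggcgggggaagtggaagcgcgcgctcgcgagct

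SRSF1 held 5 copies of GCGTG, some of them overlapping, and TRA2B 1 of each motif. HNRNPM held GCGTG and the palindrome CACGTG, which contains ACGTG on both strands. Genes with and without matches were found in both directions. HNRNPAB, which fell furthest, and SF3A1, which rose, held neither ACGTG nor GCGTG, and nor did HNRNPA2B1, which also fell. SRSF4, which rose, held 2 copies of ACGTG. Among the other genes that rose, SF3A2 held 2 of GCGTG, and HNRNPDL held the palindrome CACGTG and 1 of GCGTG. RefSeq's table had an entry for 42 of the 46 members, and none for HNRNPA1, SF3B3, SRSF2 or TRA2A. ACGTG was present in 40.5% of the 42, in 22% of the 12502 tested genes with an entry and in 18.7% of all 27305 promoters. GCGTG was present in 57.1%, 41.9% and 31.9%, and CACGTG in 11.9%, 8.39% and 6.49%. GAANNTTC, letters of the heat shock element, was in 4.76% of the members, 4.21% of the tested genes and 5.85% of all. By direction in hypoxia, ACGTG was in 9 of 20 members that fell, 2 of 7 that rose and 6 of 14 that were not called, and GCGTG in 12 of 20, 3 of 7 and 8 of 14. Median GC content was 65.2% in the members, 64.0% in the tested genes and 58.0% in all promoters. A match describes letters and is not a binding site.

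TRA2A and SRSF10 each had a second probe set with a symbol of its own, dimmer over the 15 arrays. The second set of SRSF10 gave the same picture as the first, with a fall of 1.35 in hypoxia (adjusted p 9.11e-09). The second set of TRA2A did not. It read 6.05, 6.57 and 5.98 in normoxia and 7.10, 7.08 and 6.89 in hypoxia, a rise of 0.82 ± 0.16 (adjusted p 0.000176), where the first set fell by 1.43 ± 0.13. With BB2-125 it read 8.07, 8.54 and 8.23 and with BB2-162 9.12, 8.68 and 8.72. These were rises of 1.26 and 1.82 over the hypoxic vehicle (adjusted p 6.86e-06 and 1.15e-07), in the direction of the first set. With BB2-282 it read 6.93, 7.12 and 7.05, at the level of the hypoxic vehicle (adjusted p 0.982). The probe table does not say which transcripts either set covers, and the average of the sets was called neither in hypoxia (-0.30, adjusted p 0.0541) nor with BB2-282 (-0.23, adjusted p 0.304). The rises of TRA2A with BB2-125 and BB2-162 were therefore seen by both probe sets, and its fall in hypoxia by 1 of them.

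**Figure D3:**
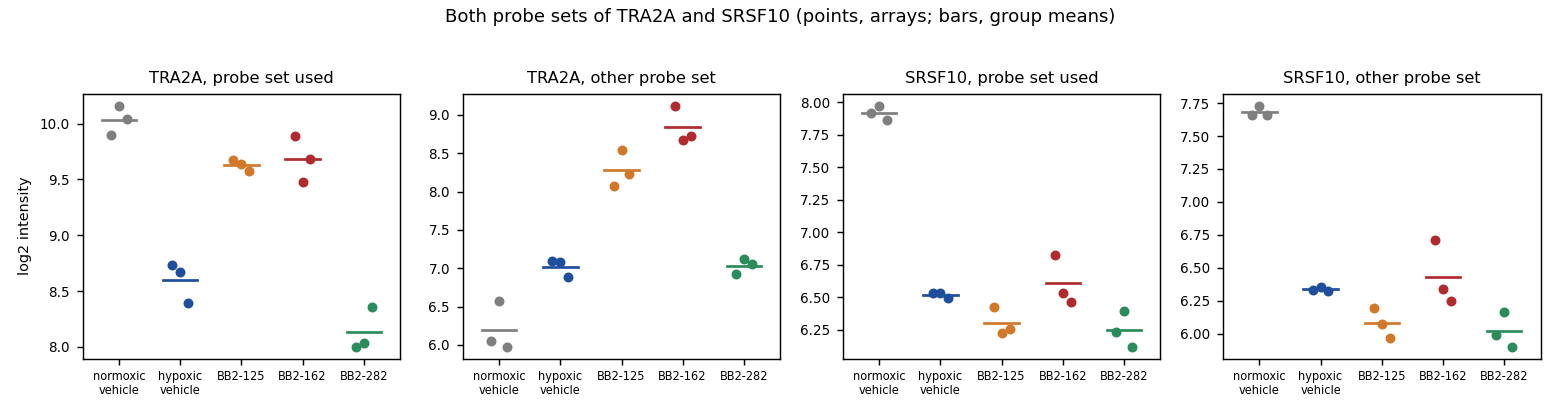
Log2 intensity of both probe sets of TRA2A and of SRSF10 on each array (points), with group means (bars), in the 5 groups. The TRA2A sets move in opposite directions from normoxic to hypoxic vehicle and both rise with BB2-125 and BB2-162, while the SRSF10 sets fall together in hypoxia.

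SR and SR-like genes held most of the large rises with BB2-162. Of 12 SR genes 6 rose against the hypoxic vehicle, and 3 of 3 SR-like genes did. SRSF1 read 10.53, 10.20 and 10.48 with BB2-162, against 9.22 ± 0.11 in the hypoxic vehicle (mean ± SD, n = 3), a rise of 1.18 ± 0.10 or 2.27-fold (adjusted p 1.52e-07). SRSF2 read 10.97, 10.72 and 10.87 against 9.72 ± 0.05, a rise of 1.13 ± 0.10 (adjusted p 8.94e-08). Both stayed under their normoxic means of 10.82 ± 0.08 and 11.10 ± 0.04. SRSF7 rose by 0.86 ± 0.10 (adjusted p 4.43e-06), SRSF11 by 0.51 ± 0.12 and SRSF8 by 0.46 ± 0.10 (adjusted p 0.00301 and 0.00109). TRA2A read 9.89, 9.47 and 9.68 and rose by 1.08 ± 0.13 or 2.12-fold (adjusted p 3.89e-06). TRA2B rose by 0.63 ± 0.10 and SRRM1 by 0.64 ± 0.15 (adjusted p 5.63e-05 and 0.00271). SRRM1 had not been called in hypoxia, so a rise with the compound was not limited to genes that hypoxia had lowered. SRSF3 was only just called, at 0.32 ± 0.12 (adjusted p 0.0479), and not without BB2-162 replicate 1 (0.18, adjusted p 0.191) or without any one of the hypoxic vehicle arrays (0.26 to 0.35, adjusted p 0.0719 to 0.132). Median centring also ended it (adjusted p 0.166).

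Of 18 hnRNPs 7 rose with BB2-162 and 1 fell, or 38.9% and 5.6%, beside 15.7% and 20.4% of all genes. HNRNPL, which binds CA-rich RNA, rose most of all members, from 10.22, 9.82 and 10.33 to 11.44, 11.15 and 11.48, by 1.23 ± 0.12 or 2.35-fold (adjusted p 4.62e-07). All 3 values also lay above those of the normoxic arrays, 10.52, 10.64 and 10.57. HNRNPM rose by 0.59 ± 0.11 (adjusted p 0.000474) to 7.71 ± 0.11, still far below its normoxic 8.98 ± 0.21. HNRNPAB and HNRNPA2B1, which had fallen as far in hypoxia, changed by 0.09 and 0.07 (95% intervals -0.13 to 0.31 and -0.19 to 0.33) and were not called. HNRNPK fell, from 11.04, 11.10 and 10.99 to 10.85, 10.61 and 10.55, by 0.37 ± 0.10 (adjusted p 0.00608; 0.0536 in a fit of these groups alone). HNRNPA1 rose by 0.62 ± 0.22 (adjusted p 0.0328), a call lost without BB2-162 replicate 2 or 3 or hypoxic vehicle replicate 2 (0.48 to 0.65, adjusted p 0.0652 to 0.144) or after median centring (adjusted p 0.0764). The smaller rises of HNRNPH1, HNRNPCL2, HNRNPD and HNRNPH3, 0.32, 0.38, 0.44 and 0.45, were also lost after median centring (adjusted p 0.0612 to 0.0766). HNRNPU changed by 0.36 (adjusted p 0.0681) and overlapped the vehicle.

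Among the branch point and U2AF genes, SF3B4 rose by 0.67 ± 0.09, U2AF1L4 by 0.64 ± 0.11, SF3B2 by 0.46 ± 0.11 and SF3A2 by 0.42 ± 0.10 with BB2-162 (adjusted p 2.77e-05, 0.000195, 0.0038 and 0.00308). SF3A2 had already risen in hypoxia and so moved further from its normoxic level. SF3B3 was lower by 0.39 ± 0.13, with overlapping groups (adjusted p 0.0212). Its call was lost in a fit of these groups alone (adjusted p 0.0925), after quantile normalization (0.0641), and without BB2-162 replicate 2 or 3 or hypoxic vehicle replicate 1 or 2 (-0.39 to -0.28, adjusted p 0.0527 to 0.119). SF3B1, U2AF1 and U2AF2 changed by 0.09, -0.07 and 0.23 and were not called.

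**Figure D4:**
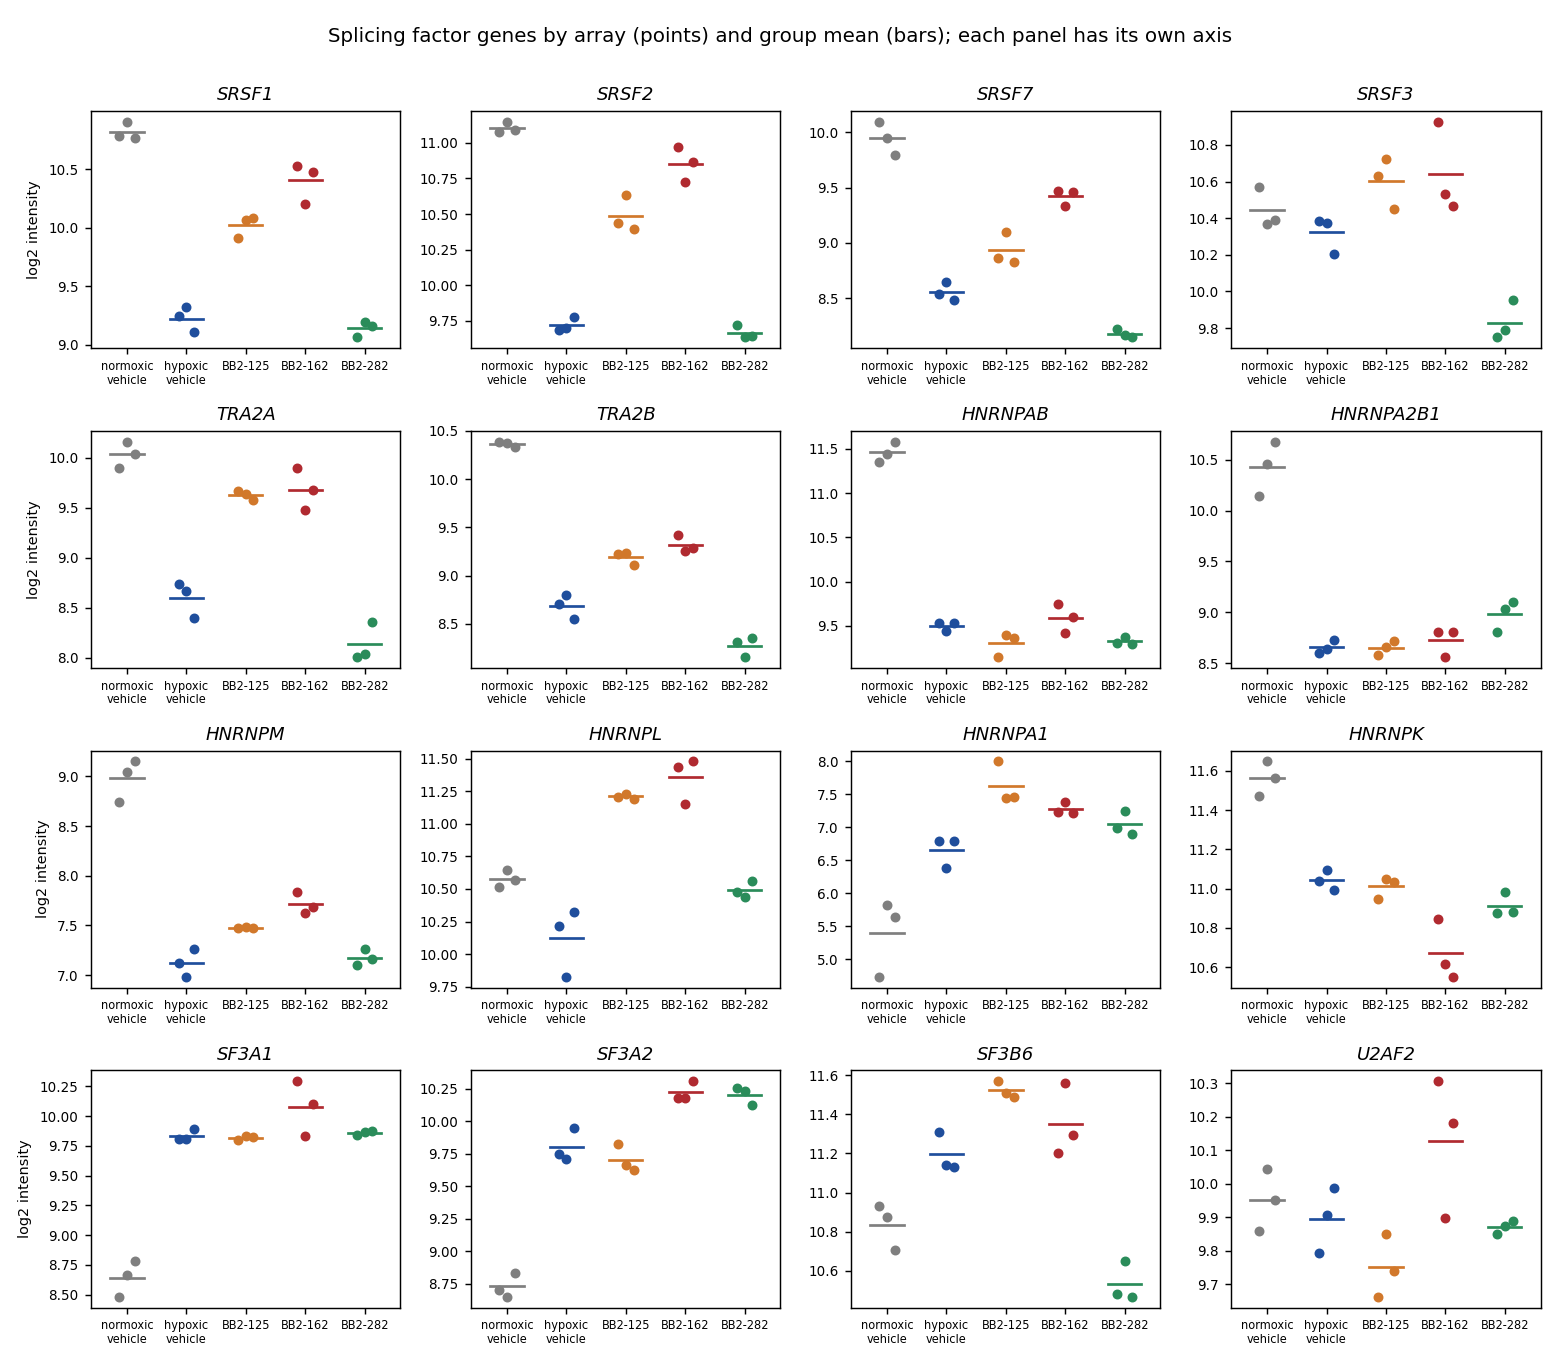
Log2 intensity of 16 members on each of the 15 arrays (points) with group means (bars); each panel has its own axis. SRSF1, SRSF2, SRSF7, TRA2A and TRA2B are high in normoxia, low with hypoxic vehicle and BB2-282, and in between with BB2-125 and BB2-162. HNRNPAB and HNRNPA2B1 stay low in all 4 hypoxic groups. TRA2A is shown on the probe set used, and its other set is lowest in normoxia.

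With BB2-125, 4 of 12 SR genes, 2 of 3 SR-like genes, 3 of 18 hnRNPs, 4 of 9 SF3A and SF3B genes and 1 of 3 U2AF genes rose. The share was 33.3% for SR genes and 44.4% for SF3A and SF3B genes, beside 13.3% of all genes. That of hnRNPs, 16.7%, was close to all genes. HNRNPL read 11.21, 11.23 and 11.19, a rise of 1.09 ± 0.12 or 2.13-fold (adjusted p 1.74e-06), again above every normoxic array. TRA2A read 9.67, 9.64 and 9.58 and rose by 1.03 ± 0.13 (adjusted p 6.49e-06). SRSF1 read 9.91, 10.07 and 10.08 and rose by 0.80 ± 0.10, and SRSF2 read 10.43, 10.63 and 10.40 and rose by 0.77 ± 0.10 (adjusted p 1.12e-05 and 6.9e-06). In each of these 4 genes all BB2-125 arrays were above all hypoxic vehicle arrays. HNRNPA1 rose by 0.97 ± 0.22 (adjusted p 0.00199), SRSF11 and U2AF1L4 by 0.54 ± 0.12 and 0.54 ± 0.11 (adjusted p 0.00191 and 0.000954), and TRA2B by 0.50 ± 0.10 (adjusted p 0.000521). SRSF7 rose by 0.38 ± 0.10 (adjusted p 0.00921; 0.0627 without BB2-125 replicate 2). The rises of HNRNPM, SF3A3, SF3B2, SF3B4 and SF3B6 were 0.32 to 0.36, and each was lost when certain single arrays were left out (adjusted p 0.0505 to 0.119); each of the 6 arrays ended at least 1 of them. HNRNPA2B1, HNRNPK, HNRNPU and SF3B1 changed by -0.00, -0.03, -0.09 and 0.25, and SRSF3, U2AF1 and U2AF2 by 0.28, -0.23 and -0.15, with no call.

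The labels do not say whether arrays of the same replicate number belong together. By number, the deviations of hypoxic vehicle and BB2-125 arrays were weakly correlated, which does not establish pairing. With the number as a block the count was again 14 higher, and with the block and no other groups in the fit it was 16, SRRM1 and SRSF3 being added. That last fit was not planned beforehand.

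BB2-282 moved few of these genes. SF3B6 gave the clearest change, from 11.31, 11.14 and 11.13 to 10.48, 10.65 and 10.47, a fall of 0.66 ± 0.11 or 1.58-fold (adjusted p 0.000413). All BB2-282 arrays lay below the normoxic ones too, 10.93, 10.87 and 10.71. SRSF3 went from 10.39, 10.38 and 10.21 to 9.75, 9.79 and 9.95, a fall of 0.49 ± 0.12 (adjusted p 0.0107), and had not been called in hypoxia. TRA2B was lower by 0.41 ± 0.10, TRA2A by 0.47 ± 0.13 and SRSF7 by 0.38 ± 0.10 (adjusted p 0.00705, 0.0185 and 0.0198), and SF3A2 and HNRNPL were higher by 0.40 ± 0.10 and 0.37 ± 0.12 (adjusted p 0.0106 and 0.0468). SRSF1 read 9.06, 9.19 and 9.16 and SRSF2 9.72, 9.63 and 9.65. Their changes against the hypoxic vehicle were -0.08 and -0.06 (95% intervals -0.30 to 0.13 and -0.26 to 0.14), with no call. HNRNPA1, HNRNPA2B1, HNRNPK and HNRNPU changed by 0.39, 0.33, -0.13 and -0.07, and SF3B1, U2AF1 and U2AF2 by -0.32, 0.10 and -0.03, with no call.

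Except for SF3B6, the calls with BB2-282 depended on single arrays. That of TRA2B was lost without BB2-282 replicate 2 (-0.35, adjusted p 0.0522), and that of SRSF3 without BB2-282 replicate 1 or hypoxic vehicle replicate 1 (-0.45 and -0.46, adjusted p 0.0505 and 0.0536). TRA2A was lost without replicate 1 or 2 of either group (-0.44 to -0.40, adjusted p 0.0734 to 0.103), and SRSF7 without BB2-282 replicate 2 or 3 or hypoxic vehicle replicate 1 or 2 (-0.39 to -0.33, adjusted p 0.0579 to 0.0908). SF3A2 was lost without hypoxic vehicle replicate 1 or 2 (0.37 and 0.35, adjusted p 0.0536 and 0.0574), and HNRNPL without any BB2-282 array or without hypoxic vehicle replicate 1 or 2 (0.22 to 0.42, adjusted p 0.0739 to 0.274). The counts fell as low as 0 higher, without hypoxic vehicle replicate 1 or 2, and 2 lower, without BB2-282 replicate 2 or hypoxic vehicle replicate 1.

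The compounds were given at the same dose and time, so they were set against each other in 3 pairs, each tested over all genes. The members' median difference was furthest from 0 between BB2-162 and BB2-282, although as many members, 24, were called between BB2-125 and BB2-282. With BB2-162, 23 members were higher than with BB2-282 and 1 was lower, beside 15.6% of all genes higher and 20.3% lower, and the members' median difference was 0.35 against 0.06 over all genes. TRA2A differed by 1.55 ± 0.13 or 2.93-fold, SRSF1 by 1.27 ± 0.10, SRSF7 by 1.24 ± 0.10, SRSF2 by 1.19 ± 0.10 and TRA2B by 1.05 ± 0.10 (adjusted p 4.12e-08, 4.12e-08, 4.53e-08, 3.27e-08 and 1.54e-07). In each of these 5 genes the lowest BB2-162 array was above the highest BB2-282 array. By family, 8 of 12 SR genes, 3 of 3 SR-like genes, 6 of 18 hnRNPs, 5 of 9 SF3A and SF3B genes and 1 of 3 U2AF genes were higher with BB2-162. SF3B3 was lower, by 0.52 ± 0.13 (adjusted p 0.00335). HNRNPA1, SRSF4 and SF3A2 differed by 0.23, 0.00 and 0.02 (95% intervals -0.22 to 0.69, -0.21 to 0.21 and -0.19 to 0.23) and were not called. Without BB2-162 replicate 1 the count was 18 higher and 4 lower. The lower count was 2 without BB2-162 replicate 3, and also 2 without BB2-282 replicate 3. After median centring the count was 18 higher and 4 lower, and the share of higher genes among all called moved from 43.4% to 32.9%.

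BB2-125 and BB2-282 gave 21 members higher with BB2-125 and 3 lower, beside 18.7% and 17.6% of all genes, with a median difference of 0.26 against 0.00 over all genes. TRA2A was higher by 1.50 ± 0.13, SF3B6 by 0.99 ± 0.11, TRA2B by 0.92 ± 0.10, SRSF1 by 0.88 ± 0.10 and SRSF2 by 0.82 ± 0.10 (adjusted p 4.57e-08, 7.67e-07, 5.32e-07, 2.1e-06 and 1.77e-06). None of their groups overlapped. SRSF3, at 10.63, 10.73 and 10.45 with BB2-125 and 9.75, 9.79 and 9.95 with BB2-282, differed by 0.77 ± 0.12 (adjusted p 5.28e-05). SF3A2 was lower with BB2-125, by 0.50 ± 0.10 (adjusted p 0.000476). U2AF1 was lower by 0.34 ± 0.10 (adjusted p 0.0129; 0.0531 without BB2-282 replicate 3). HNRNPA2B1 was lower by 0.33 ± 0.12 (adjusted p 0.0461), a call lost without any one BB2-125 array or BB2-282 replicate 2 or 3 (-0.36 to -0.27, adjusted p 0.0661 to 0.168).

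BB2-125 and BB2-162 differed less. Of the members, 3 were higher with BB2-125 and 12 lower, beside 16.7% and 9.43% of all genes, and the median difference was -0.13 against -0.05. SF3A2 was lower with BB2-125 by 0.52 ± 0.10 and SRSF7 by 0.49 ± 0.10 (adjusted p 0.000779 and 0.00182). TRA2A differed by -0.05 (95% interval -0.32 to 0.21), TRA2B by -0.13 (-0.33 to 0.07) and HNRNPL by -0.15 (-0.40 to 0.11), with no call. The second probe set of TRA2A was lower with BB2-125 by 0.56 (adjusted p 0.0127), so its sets disagree here. SRSF1, at -0.38 (adjusted p 0.011), was lost without BB2-125 replicate 1 or BB2-162 replicate 3 (-0.33 and -0.34, adjusted p 0.0579 and 0.051). SRSF5, at -0.42 (adjusted p 0.027), was lost without BB2-125 replicate 1 or 2 or BB2-162 replicate 1 or 3 (-0.42 to -0.33, adjusted p 0.0673 to 0.0912). HNRNPD, at -0.42 (adjusted p 0.0351), was lost without replicate 1 or 3 of either compound (-0.43 to -0.31, adjusted p 0.0792 to 0.11). HNRNPK was higher by 0.34 ± 0.10 (adjusted p 0.0139; 0.0745 without BB2-162 replicate 3).

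The counts of this pair moved with several settings. In a fit of these groups alone 3 members were lower, SF3A2, SRSF5 and SRSF7, and 0 higher. They were 4 higher and 7 lower without BB2-162 replicate 1. The lower count was 5 without BB2-125 replicate 1 and 6 without BB2-162 replicate 3, and the higher count was 1, 0 and 1 without BB2-125 replicate 1, BB2-162 replicate 3 and BB2-125 replicate 3. After median centring the count was 3 higher and 6 lower, and the share of higher genes among all called moved from 63.9% to 74.4%.

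**Figure D5:**
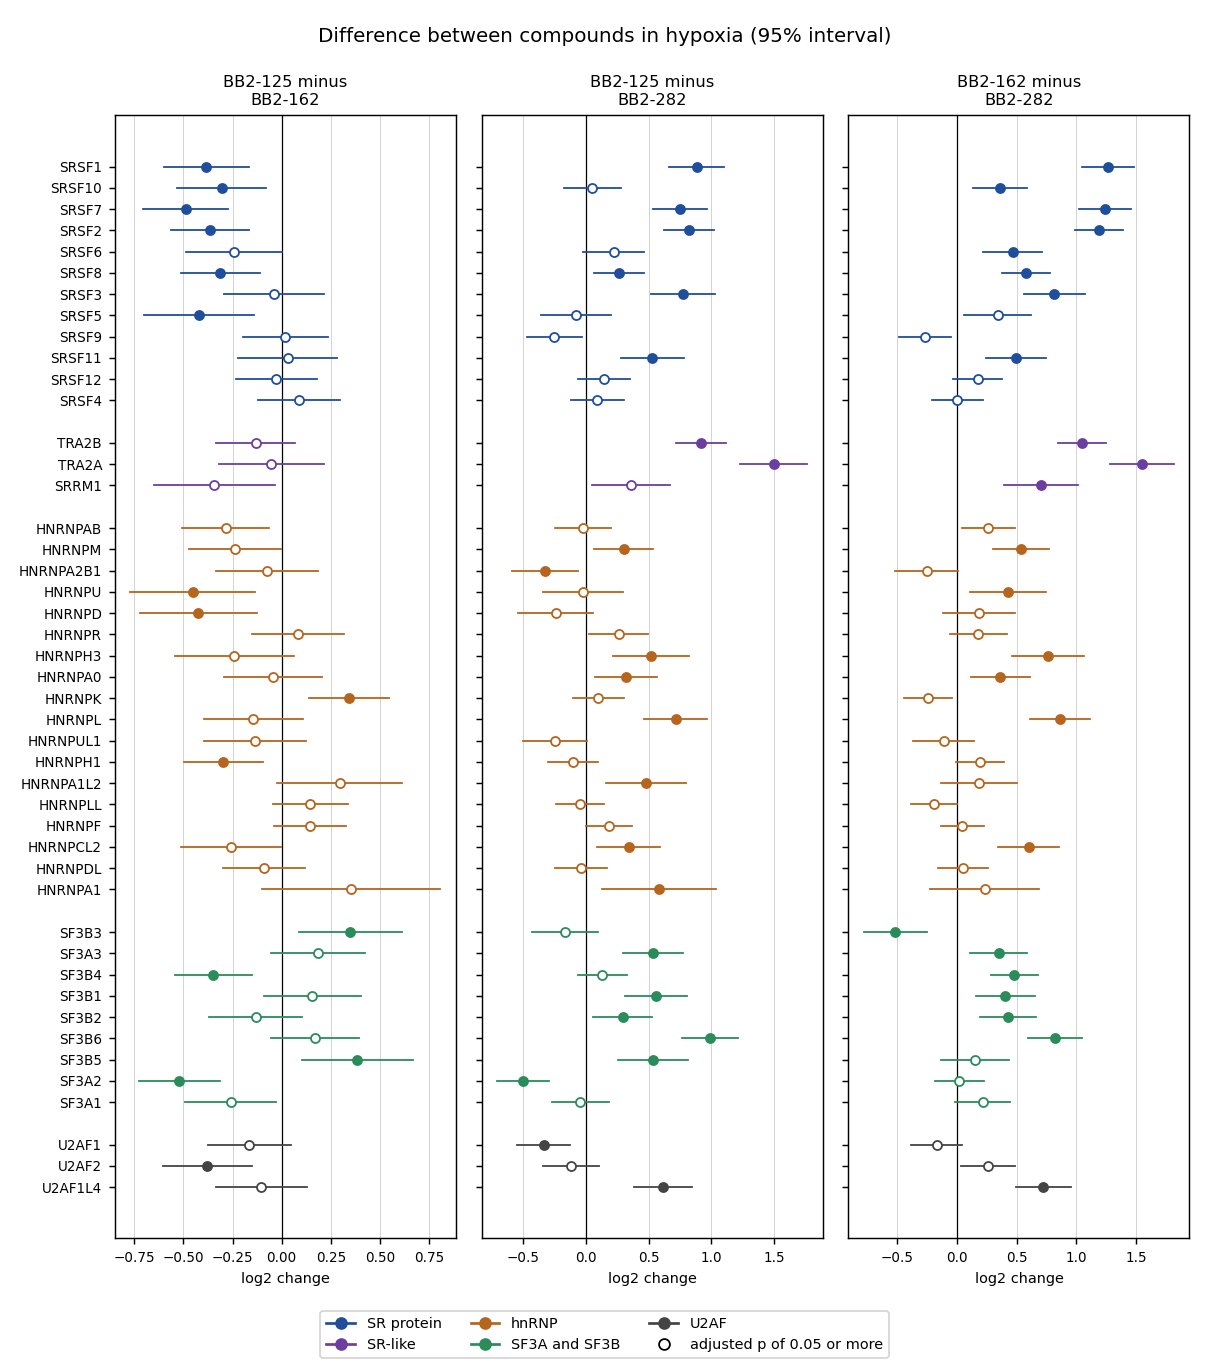
Log2 difference of each tested member between compounds in hypoxia, with the 95% interval from limma; filled points have an adjusted p under 0.05, members stand in the order of the hypoxia plot and each panel has its own axis. TRA2A, TRA2B, SRSF1, SRSF2 and SRSF7 lie to the right with both BB2-125 and BB2-162 against BB2-282, and TRA2A and TRA2B lie near 0 between BB2-125 and BB2-162.

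Since the pairs hold no vehicle array, they can be set beside the hypoxia change. Of the 23 members lower in hypoxia, 15 were higher with BB2-162 than with BB2-282, which is 65.2% of the 23 and also 65.2% of the 23 called higher in that pair. Of the other 22 members 8 were higher, or 36.4%. Of the 4699 genes of the whole table that were lower in hypoxia 18% were, beside 14.5% of all other genes. Without BB2-162 replicate 1 the 15 became 11, or 47.8%, with HNRNPA0, HNRNPU, SF3A3 and SRSF10 lost. In that setting 31.8% of the other members were higher, beside 15.6% of all genes lower in hypoxia and 23% of all other genes. With any other array of the pair left out there were 12 to 16 in place of the 15. Of the same 23, 11 were higher with BB2-125 than with BB2-282, which is 47.8% of them and 52.4% of the 21 called. That is close to the 45.5% of the other members, so the members that fell in hypoxia were called about as often as the rest. Over the whole table the shares differed, at 34.8% of all genes lower in hypoxia and 12% of all other genes. SRSF1, SRSF2, SRSF7, SRSF8, TRA2A, TRA2B, HNRNPM, HNRNPL, HNRNPH3, HNRNPA0 and SF3A3 are the 11. TRA2A is counted by the probe set used, and its other set rose in hypoxia. The calls of SRSF8, HNRNPM and HNRNPA0 were each lost without 4 or 5 of the 6 single arrays (0.22 to 0.32, adjusted p 0.0805 to 0.187), and those of HNRNPM and HNRNPA0 after median centring (adjusted p 0.064 and 0.0762). With 1 array left out the 11 became 8 to 10, and 8 without BB2-125 replicate 2 or 3 or BB2-282 replicate 1. Those that fell in hypoxia and were called in neither of these pairs included HNRNPAB and HNRNPR. Between BB2-125 and BB2-162, 9 of the 23 were lower with BB2-125 (39.1%) and 2 were higher (8.7%). That higher count was 0 to 3 with 1 array left out. Higher with BB2-125 were also 4.55% of the other members, 34.3% of all genes lower in hypoxia and 9.36% of all other genes.

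Other parts of the splicing machinery were described from lists of known genes. Of 9 kinases of SR proteins tested, 3 rose in hypoxia and 1 fell (33.3% and 11.1%, beside 28.2% and 29.4% of all genes). CLK1, a nuclear kinase of SR proteins, rose by 2.47 ± 0.09 (adjusted p 1.41e-13) and CLK3 by 1.06 ± 0.10, while SRPK1, which phosphorylates SR proteins in the cytoplasm, fell by 0.74 ± 0.14. With BB2-125 and BB2-162, 2 kinases fell, 22.2% beside 15% and 20.4% of all genes. CLK4 changed by -0.72 and -0.70 with the 2 compounds in that order, and DYRK1B by -0.72 and -0.38. With BB2-282 CLK1 fell by 0.34 (adjusted p 0.0184). Of 36 other splicing regulators tested 11 rose and 14 fell in hypoxia, or 30.6% and 38.9%, the first close to the share of all genes. With BB2-125 5 rose and 5 fell, with BB2-162 4 and 6, and with BB2-282 1 and 0, all at or below the shares of all genes or within 1 percentage point of them. SFPQ, a paraspeckle protein, fell by 2.47 ± 0.13 (adjusted p 1.26e-11), more than any SR or hnRNP gene, and MBNL2 and QKI rose by 1.61 and 0.93. RBM25 rose by 0.88 with BB2-125 and by 0.98 with BB2-162, PTBP3 fell by 1.12 with BB2-125, and SFPQ rose by 0.84 with BB2-162.

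Of 59 genes of snRNPs and the core spliceosome, 24 fell and 11 rose in hypoxia, or 40.7% and 18.6%, beside 29.4% and 28.2% of all genes. PRPF31 fell by 1.44, SNRNP25 fell by 1.80, and SYF2 rose by 1.48 (adjusted p 5.58e-09). Against the hypoxic vehicle 21 rose and 2 fell with BB2-125 (35.6% and 3.39%, beside 13.3% and 15% of all genes), where PRPF6, a protein of the tri-snRNP, fell by 1.01 and LSM4 rose by 0.86. With BB2-162 15 rose and 7 fell (25.4% and 11.9%, beside 15.7% and 20.4%), and with BB2-282 3 and 9 (5.08% and 15.3%, beside 5.65% and 7.94%), where LSM3 fell by 1.27 and LSM5 by 0.64. With BB2-125 33 of the 59 were higher than with BB2-282 and 2 lower (55.9% and 3.39%, beside 18.7% and 17.6%). Genes for import of SR proteins and assembly of snRNPs fell in hypoxia in 11 of 14 cases (78.6%, beside 29.4% of all genes). WDR77, a partner of PRMT5, led them at 2.01 ± 0.12. With BB2-162, 8 of the 14 fell (57.1%, beside 20.4% of all genes), GEMIN5 by 0.83 and GEMIN7 by 0.74. With BB2-125 3 fell and 2 rose (21.4% and 14.3%, beside 15% and 13.3%), and with BB2-282 4 fell (28.6%, beside 7.94%). Of the 14, 9 were higher with BB2-125 than with BB2-162 (64.3%, beside 16.7% of all genes). Of 18 genes of the exon junction complex and of nonsense-mediated decay 4 rose and 5 fell in hypoxia, or 22.2% and 27.8%, both below the shares of all genes. With BB2-125 3 rose and 4 fell (16.7% and 22.2%, beside 13.3% and 15% of all genes). With BB2-162 it was 3 and 3 (16.7% each, beside 15.7% and 20.4%), and with BB2-282 0 and 2 (0% and 11.1%, beside 5.65% and 7.94%). MAGOHB fell by 1.81 in hypoxia. NCBP1, a subunit of the cap-binding complex, fell by 1.44 in hypoxia. It fell by a further 0.90 with BB2-162 and 0.48 with BB2-282 (adjusted p 2.08e-05 and 0.0136). EIF4A3, the helicase core of the complex, fell by 0.57 in hypoxia and rose by 0.89 with BB2-125 and 1.08 with BB2-162 (adjusted p 6.77e-06 and 8.91e-07).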

How the data were processed

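The deposited values are linear intensities per probe set and array. The submitters' processing notes name RMA; its software, version and genome build are not given in the sources used here. The probe table pairs 19310 of 28869 probe sets with 1 gene symbol, and 1752 with several. The brightest single-symbol probe set stood for each gene, log2 was taken, and genes above their array's 25th percentile on at least 3 arrays were tested. limma 3.58.1 in R 4.3.3 fitted group means over 15 arrays (10 residual and 7.96 prior degrees of freedom), after a check on simulated data, with Benjamini-Hochberg adjustment within each of 7 comparisons. Median intensities ran from 74.91 to 84.60, and 3 arrays per group limit the precision.

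The members and gene lists were chosen with earlier results of these data known. Named are the 5 largest rises and falls among called members whose groups did not overlap, 12 set members in comparisons with the hypoxic vehicle, and up to 3 genes of lowest p per list; further members are described by family and were chosen after their values were seen. Alternatives covered scaling, filter, samples in the fit, intensity trend, probe sets, replicate block and each array left out. Same-number deviations of hypoxic vehicle and BB2-125 correlated at 0.328, 0.286 and 0.189, so a fit of these groups alone with the number as a block was added. Those of normoxic vehicle and BB2-282 were also all positive, at 0.344, 0.087 and 0.13, so pairing is not established. No 2 arrays were identical.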

Additional observations from a re-analysis of the deposited data

How the results depend on the processing

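The 14 counts of members called higher or lower were recomputed under each alternative. In a fit of the compared groups alone, the lower count with BB2-162 was 0, the higher count with BB2-282 1, BB2-125 against BB2-162 0 higher and 3 lower, and BB2-125 against BB2-282 5 lower. Quantile normalization gave 24 higher and 1 lower with BB2-162. It also gave 0 higher and 16 lower for BB2-125 against BB2-162, and 2 lower for BB2-162 against BB2-282. Median centring gave 1 higher with BB2-282, 6 lower for BB2-125 against BB2-162 and 4 lower for BB2-162 against BB2-282. Without a dim filter 1 was higher with BB2-282. BB2-162 against BB2-282 had 3 lower with the median as filter, 2 with an intensity trend and 2 with averaged probe sets. With 1 array left out, counts ran from 9 to 13 higher and 0 to 1 lower with BB2-125, 1 to 2 lower with BB2-162, 0 to 2 higher and 2 to 5 lower with BB2-282, 0 to 4 higher and 5 to 16 lower for BB2-125 against BB2-162, and 1 to 4 lower for BB2-162 against BB2-282. In hypoxia they ran from 7 to 8 higher and 19 to 22 lower. The replicate block gave 14 higher and 0 lower with BB2-125, and 17 higher in place of 21 for BB2-125 against BB2-282. Same-number deviations of that pair correlated at 0.012, -0.127 and -0.055. Of 81 changes of named members, 1227 values under alternatives kept direction and side of the threshold in 1157 cases, lost the call in 60, gained one in 8 and reversed in 2. Both reversals are TRA2A on its other probe set, a setting chosen after seeing the data: 0.82 in hypoxia and 0.009 with BB2-282. The cause of these changes was not tested. Probe sets near the lower percentile carry little signal over background, which limits HNRNPA1, HNRNPA1L2 and HNRNPCL2.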
